A study of Mus musculus with 12 samples.

Results

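The aminoacyl-tRNA synthetases of the mouse were followed in macrophages given IL4, with and without emodin. Members were chosen by gene name, as the probes whose RefSeq transcript belongs to a listed synthetase gene. That rule uses no measured value, though earlier results of these data were known when the list was chosen. The list holds 36 genes, 20 for cytosolic enzymes and 16 for mitochondrial enzymes (symbols ending in 2), out of 37018 genes or unnamed transcripts on the array. All 36 had a probe, 45 probes in all. A gene was tested if at least 1 group had a probe well above background throughout its 4 arrays, and 35 of the 36 met this, among 20860 genes tested in all. The gene left out was Nars2, for mitochondrial asparaginyl-tRNA synthetase, which was not well above background on any of the 12 arrays.

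The labels give the cells as peritoneal macrophages from 8-week-old C57BL/6 mice, titled WT, purified by adherence and held in medium without serum overnight before treatment. Each of 3 conditions had 4 arrays. Controls received vehicle, a further group received 10 ng/ml IL4, and the last received the same dose of IL4 together with 50 µM emodin, an anthraquinone from plants. Sample descriptions state 6 h of treatment and the treatment protocol states overnight, and the design text names blood cells where the sample labels name macrophages. Replicates 1 and 2 of each group were female and 3 and 4 male. Whether each array holds a single mouse or a pool is not given, and p-values reflect only the spread of these samples, which may be technical. By its title the study asked about emodin and the alternative activation of macrophages by IL4, and the synthetases are compared over the same groups.

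Each synthetase joins an amino acid to its tRNA, the step that fixes the meaning of a codon before the ribosome is reached. In mammals a cytosolic set serves ribosomes translating nuclear messages, and a separate nuclear-encoded set is imported to serve the mitochondrial ribosome, which makes core subunits of the respiratory chain. Gars and Kars, for glycyl- and lysyl-tRNA synthetase, encode the enzymes of both compartments. Many cytosolic synthetase genes are known targets of ATF4, the transcription factor made when uncharged tRNA or endoplasmic reticulum stress leads to phosphorylation of eIF2α, and Wars, for tryptophanyl-tRNA synthetase, is known as an interferon-induced gene.

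The composite C/EBP-ATF element bound by ATF4 with its partners was searched in the promoters. The stretches that hold it are shown because 4 of these 5 genes rose with IL4 in the values below. None of those 4 rises passed the threshold given below in every fit that left arrays out. A part of ATF4 in them was not tested. RefSeq promoters (GRCm38.p6, 250 bases before to 50 after the start) were at hand for 13 cytosolic and 14 mitochondrial members. Cars, Hars, Lars, Nars, Rars, Vars and Wars, and the mitochondrial Hars2 and Pars2, had no promoter at hand. Those genes were not searched for any motif, so most of the cytosolic genes that rose with IL4 are not covered. The letters TGATGNAA, or TTNCATCA on the other strand, were present in 5 of 13 cytosolic promoters (38.5%), in 0 of 14 mitochondrial promoters and in 3.97% of 32851 mouse promoters of that length. Capitals mark the match in the stretches shown, each read in the direction of the gene.
Gars, chr6:55037901-55038000, + strand, bases -100 to -1 before the start: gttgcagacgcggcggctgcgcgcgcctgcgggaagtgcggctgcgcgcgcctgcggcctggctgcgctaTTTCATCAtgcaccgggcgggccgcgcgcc
Tars, chr15:11399659-11399758, - strand, bases -100 to -1 before the start: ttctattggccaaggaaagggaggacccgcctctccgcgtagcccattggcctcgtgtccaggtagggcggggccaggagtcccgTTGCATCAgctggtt
Aars, chr8:111033692-111033771, + strand, bases -150 to -71 before the start: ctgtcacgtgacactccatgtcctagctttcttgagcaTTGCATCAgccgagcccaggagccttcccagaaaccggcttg
Iars, chr13:49682124-49682152, + strand, bases -6 to 23 about the start: ggcactgtcagtaTTGCATCAcctccaga
Yars, chr4:129189893-129189921, + strand, bases -10 to 19 about the start: cgacgagctcagcTGATGCAAcccgacgg
The match began at base -30 in Gars, -15 in Tars and -112 in Aars, which held a further match at base 10, and at base 8 in Iars and 4 in Yars. Of the other motifs searched on both strands, the E-box CACGTG was present in 4 of 13 cytosolic promoters (Aars, Farsb, Iars and Tars) and 1 of 14 mitochondrial ones (Ears2), against 7.15% of all promoters. A STAT6-type motif was in 0 cytosolic and 1 mitochondrial promoter (Aars2), against 6.95% of all, and an interferon-response motif, which can overlap it, in 1 cytosolic promoter (Qars) and 0 mitochondrial ones, against 3.44%. The NRF1 motif was in 0 of either set, against 0.971% of all. A match describes letters only, and no match says nothing of the factor.

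A level below is the log2 signal of the gene's probe minus the log2 75th percentile of its array, so that 0 is the 75th percentile itself, and a difference is between means of 4 arrays. Differences were fitted with limma and called at a Benjamini-Hochberg adjusted p below 0.05. The 75th percentile of intensity was 730 ± 74.0 (SD, n = 4) on control arrays, 776 ± 24.5 on IL4 arrays and 488 ± 31.4 on emodin arrays, lower on emodin than on IL4 arrays (exact permutation p = 0.0286, two-sided, the smallest that 4 against 4 arrays can give). Set against 6 spike-in probes, it lay 1.08 log2 units lower on emodin than on IL4 arrays and 0.95 lower than on control arrays (exact permutation p = 0.0286 for each). All 4 emodin arrays lay on a slide of their own, which makes emodin and slide a pair that cannot be told apart, and all IL4 arrays lay in the other row of the slide they shared with the controls, so slide row and IL4 cannot be told apart. In these bulk samples, fewer cells of a type and less RNA per cell cannot be told apart either.

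Macrophage markers were present. Of 10 listed, 9 had a probe and 8 lay above background on all 12 arrays, with a summed linear signal of 658 to 669 times the 75th percentile in controls, 718 to 814 with IL4 and 666 to 789 with emodin. The sum was higher with IL4 than in controls (exact permutation p = 0.0286). With emodin against IL4, 2 of the 9 were called higher (Lyz2 0.32 and Adgre1 0.18), 4 lower (Fcgr1 -2.89, Icam2 -1.59, Mertk -0.57 and Csf1r -0.55) and 3 were not called, with a median of 0.03. Of all genes, 39.4% were called higher and 26.5% lower, with a median of 0.17. Quantile normalization called 0 markers higher and 5 lower (median -0.30), beside 29.4% and 30.9% of all genes. Spike-in scaling called 0 higher and 9 lower, beside 3.51% and 80.4%, so the rises of Lyz2 and Adgre1 depend on the scaling. Of 6 B cell markers, Pax5 and Blk were below background throughout, and the sum was 1.05 to 2.38, 1.18 to 2.18 and 0.398 to 0.564 in the same order, lower with emodin than with IL4 (exact permutation p = 0.0286). Of 5 T cell markers 4 had a probe and Cd3d and Cd3g were below background throughout, and the sum was 4.18 to 4.7, 1.79 to 3.06 and 2.81 to 5.84, lower with IL4 than in controls (exact permutation p = 0.0286). For 5 neutrophil markers, 4 of them with a probe, the sum was 25.8 to 39.1, 18.8 to 29.8 and 36.2 to 58.5, higher with emodin than with IL4 (exact permutation p = 0.0286). The sum of 3 eosinophil markers, with Prg2 and Epx below background throughout, was 0.103 to 0.25, 0.163 to 0.482 and 0.0642 to 0.119, lower with emodin than with IL4 (exact permutation p = 0.0286). The sum of 5 mast cell markers spanned 0.258 to 1.48 and that of 5 mesothelial and fibroblast markers 7.65 to 40.2, with overlapping groups. The part of these cells in the synthetase results was not tested.

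With IL4 alone, expression rose across much of the cytosolic set and little in the mitochondrial set. Of 20 cytosolic synthetases, 9 rose, 0 fell and 11 were not called, against 8.97% of all tested genes called higher and 8.55% called lower. The median cytosolic difference was 0.24, against -0.03 over all tested genes, and 19 of 20 members lay above that overall median. Of 15 mitochondrial synthetases tested, 2 rose, Ears2 and Tars2, and 0 fell, with a median of 0.03. The arrays of the IL4 and control groups did not overlap for 10 cytosolic and 3 mitochondrial members, all higher with IL4, where 12.1% of all genes did the same.

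**Figure D1:**
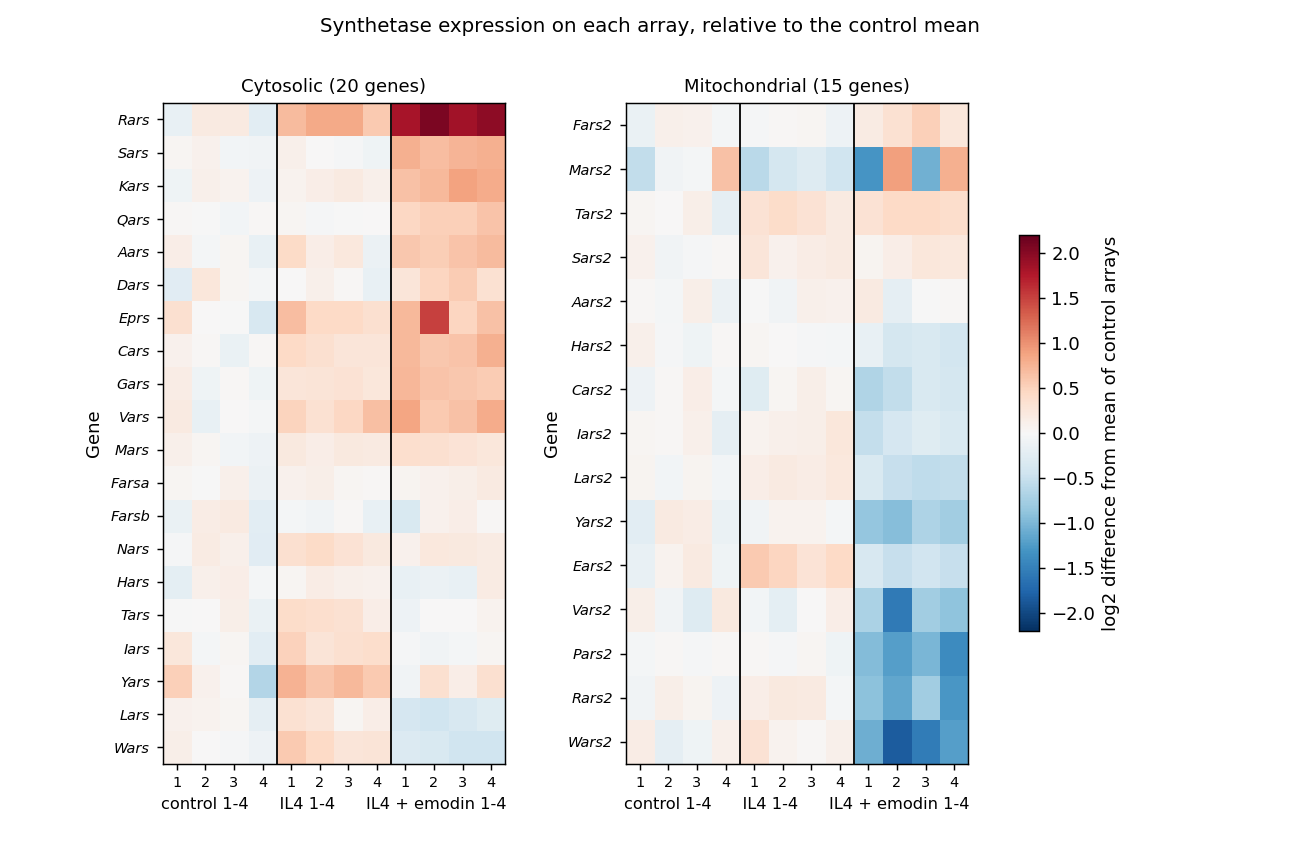
Heat map of each tested synthetase gene (rows) on each of the 12 arrays (columns, 4 per group), as log2 difference from the mean of the 4 control arrays after 75th percentile scaling. Most cytosolic rows are warm on the IL4 arrays, and on the emodin arrays the mitochondrial rows split off to the cool side, with Rars at the warm and Wars2 at the cool extreme.

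Rars, for arginyl-tRNA synthetase, moved most. Its levels were 0.5, 0.86, 0.85 and 0.42 on control arrays 1 to 4 and 1.36, 1.5, 1.5 and 1.23 on the IL4 arrays. The groups were well apart, with a rise of 0.74 ± 0.12 (SE; adjusted p = 0.000903), or 1.67-fold. Vars, for valyl-tRNA synthetase, stood at 1.03, 0.67, 0.83 and 0.78 in controls and at 1.32, 1.17, 1.29 and 1.5 with IL4, a rise of 0.49 ± 0.10 (adjusted p = 0.00568). Every IL4 array of Vars exceeded every control array. Wars gave 5.82, 5.69, 5.67 and 5.57 in controls and 6.27, 6.12, 5.96 and 5.98 with IL4, which is a rise of 0.40 ± 0.09 (adjusted p = 0.00819), again without overlap.

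Iars, for isoleucyl-tRNA synthetase, read 3.99, 3.69, 3.79 and 3.51 in controls and 4.24, 4.02, 4.1 and 4.12 with IL4. The highest control array nearly met the lowest IL4 array, and the rise was 0.38 ± 0.10 (adjusted p = 0.0187). Yars, for tyrosyl-tRNA synthetase, was dim, at -1.7, -2.13, -2.21 and -2.87 in controls and -1.46, -1.62, -1.51 and -1.65 with IL4. Control replicate 4 lay lowest, and the rise of 0.67 ± 0.20 (adjusted p = 0.0383) had the widest error among the called members. Ears2, for mitochondrial glutamyl-tRNA synthetase, was at -0.7, -0.46, -0.34 and -0.63 in controls and 0.03, -0.07, -0.24 and -0.11 with IL4, a rise of 0.43 ± 0.09 (adjusted p = 0.00659) without overlap.

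The remaining called members rose by less. Cars (cysteinyl) rose by 0.33 ± 0.08 (adjusted p = 0.0122), Nars (asparaginyl) by 0.33 ± 0.09 (adjusted p = 0.0337), Tars (threonyl) by 0.32 ± 0.08 (adjusted p = 0.0207), Tars2 by 0.31 ± 0.08 (adjusted p = 0.0224) and Gars by 0.28 ± 0.08 (adjusted p = 0.0257). Gars was not called with quantile normalization (adjusted p = 0.071) or spike-in scaling (0.0665). Sars, Qars and Dars, for the seryl, glutaminyl and aspartyl enzymes, gave differences that rounded to 0.00, with errors of 0.07, 0.06 and 0.11. Eprs, for the bifunctional glutamyl-prolyl enzyme, gave 0.47 ± 0.21 (adjusted p = 0.154), which came to adjusted p = 0.0373 without emodin replicate 2, through the shared estimate of spread. Mars (methionyl; Mars1 in the reference) gave 0.19 ± 0.07 (adjusted p = 0.0818), and with the replicate number as a block its adjusted p was 0.0465.

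The calls of these small rises depended on single arrays, while the median cytosolic difference stayed at 0.20 to 0.27 in the fits named here. The count of 9 cytosolic rises was 4 without control replicate 4 or without IL4 replicate 1 and 5 without IL4 replicate 2 or 3, and in each of these cases 1 mitochondrial member rose. Leaving out a replicate number in all groups gave 2 cytosolic rises without number 2, 3 without number 3 and 4 without number 4. Mitochondrial rises numbered 0 without number 1 or 4 and 1 without number 2 or 3. The share of all genes called higher fell too, from 8.97% to 5.77% without number 2, 6.46% without number 3 and 6.03% without number 4. Rars was called in every such fit. Vars lost its call without number 4 (adjusted p = 0.0618), Wars without number 2 (0.0746), Cars without number 2 (0.08) or 3 (0.0734) and Ears2 without number 1 (0.0501) or 4 (0.0648), while Gars, Iars, Nars, Tars, Tars2 and Yars each lost it in 6 or more fits.

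Grouped by what is known of the enzymes, the rises with IL4 were spread as follows. Synthetases fall into classes with unrelated catalytic folds, and 6 of 10 class I genes rose (median 0.39) and 3 of 10 class II genes (median 0.12), where 8.97% of all genes rose with a median of -0.03. The difference between the classes was not tested. Of the 13 members known as ATF4 targets, 8 rose and 0 fell, with a median of 0.33, beside the same background. Among the 5 members whose promoters held the C/EBP-ATF letters shown above, Gars, Iars, Tars and Yars rose and Aars was not called (0.17 ± 0.11, adjusted p = 0.352). The calls of Gars, Iars, Tars and Yars were lost in several fits with arrays left out, as given above. Of the 8 synthetases bound in the multisynthetase complex, 2 rose, Iars and Rars.

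**Figure D2:**
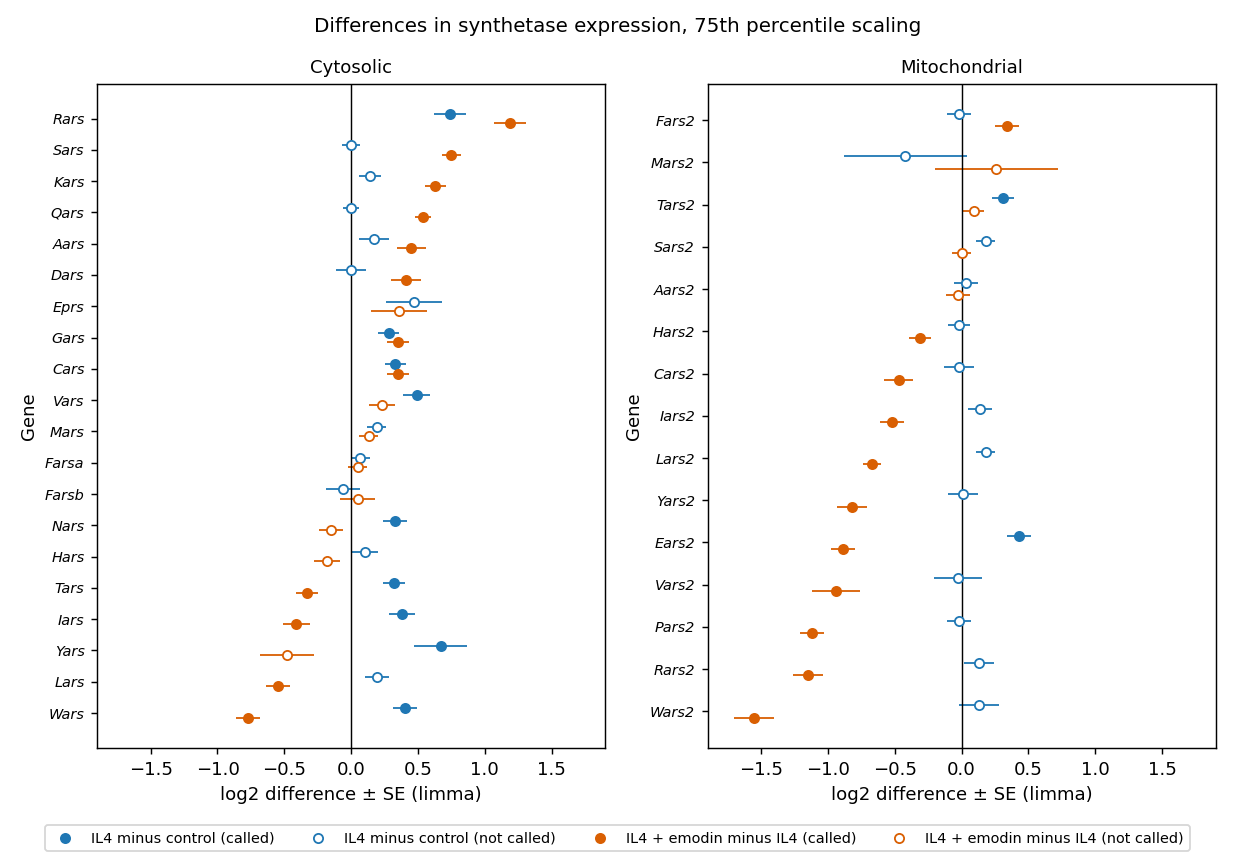
Log2 difference (horizontal axis) with its standard error from limma for each synthetase (vertical axis), for IL4 minus control in blue and IL4 plus emodin minus IL4 in orange, filled where called. Blue points of cytosolic genes lie mainly right of 0, and orange points run from Rars at 1.19 to Wars at -0.77 in the cytosolic panel and from Fars2 at 0.34 to Wars2 at -1.55 in the mitochondrial panel.

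When emodin was added to IL4, the mitochondrial set fell. Of 15 mitochondrial synthetases tested, 10 fell, 1 rose and 4 were not called, against 26.5% of all genes called lower, 39.4% called higher and 65.9% called in either direction. The median mitochondrial difference was -0.52, against 0.17 over all tested genes, and 13 of 15 members lay below that overall median. With the mean of all probes that passed the filter for a gene, the mitochondrial median was -0.31, and second probes of Iars2, Wars2, Vars2 and Cars2 differed from the first as given below. On the emodin arrays the median mitochondrial level relative to controls was -0.53, -0.51, -0.42 and -0.4, where the IL4 arrays were at 0.03, 0.08, 0.11 and 0.1. Emodin and IL4 arrays did not overlap for 10 members lower and 1 higher, against 24.4% and 36% of all genes. Quantile normalization gave the same counts of calls, with 30.9% of all genes then called lower and 29.4% higher. With spike-in scaling the median of all genes moved to -0.91, with 80.4% called lower and 3.51% higher, and 14 of 15 mitochondrial members were called lower with a median of -1.60. The distance of the mitochondrial median from the overall median was -0.69 with the 75th percentile and -0.52 with quantile normalization, and spike-in scaling cannot alter it.

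Wars2, for mitochondrial tryptophanyl-tRNA synthetase, had levels of -0.98, -1.35, -1.24 and -1.03 in controls, -0.84, -1.07, -1.13 and -1.03 with IL4 and -2.23, -2.98, -2.68 and -2.37 with emodin. Control and IL4 arrays overlapped and the emodin arrays lay far below both, by 1.55 ± 0.15 from IL4 (adjusted p = 3.42e-06), or 2.93-fold. A second Wars2 probe that passed the filter went the other way, by 0.48, and the mean of both probes fell by 0.54 (adjusted p = 0.000437).

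Rars2, the mitochondrial arginyl enzyme, read 3.17, 3.37, 3.3 and 3.12 in controls, 3.38, 3.46, 3.44 and 3.2 with IL4 and 2.33, 2.1, 2.48 and 1.96 with emodin. It fell by 1.15 ± 0.11 from IL4 (adjusted p = 3.74e-06), so that the arginyl pair moved in opposite directions. Pars2, the mitochondrial prolyl enzyme, stood at 1.85, 1.93, 1.88 and 1.93 in controls, 1.92, 1.87, 1.94 and 1.81 with IL4 and 0.94, 0.68, 0.89 and 0.52 with emodin. Its fall of 1.12 ± 0.09 (adjusted p = 7.07e-07) came after no measurable response to IL4 (-0.02 ± 0.09).

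Vars2 was at -1.49, -1.69, -1.91 and -1.4 in controls, -1.68, -1.84, -1.62 and -1.48 with IL4 and -2.31, -3.17, -2.39 and -2.5 with emodin, with emodin replicate 2 lowest. The fall from IL4 was 0.94 ± 0.18 (adjusted p = 0.000658) on this probe, -0.03 on a dimmer probe, and -0.48 on their mean (adjusted p = 0.00304). Ears2, which had risen with IL4, lay at -0.9, -1.05, -0.96 and -1.05 with emodin, below all control arrays. The change from IL4 was -0.89 ± 0.09 (adjusted p = 5.65e-06) and from control -0.45 ± 0.09 (adjusted p = 0.00113). Yars2 was at 1.69, 2.12, 2.08 and 1.78 in controls, 1.84, 1.99, 2 and 1.88 with IL4 and 1.07, 0.98, 1.24 and 1.15 with emodin, lower by 0.82 ± 0.11 (adjusted p = 3.33e-05).

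Lars2, the mitochondrial leucyl enzyme, showed 2.25, 2.13, 2.25 and 2.13 in controls, 2.34, 2.38, 2.35 and 2.42 with IL4 and 1.86, 1.68, 1.63 and 1.64 with emodin. All 3 groups were apart, though only the fall of 0.67 ± 0.07 from IL4 (adjusted p = 7.9e-06) and not the step up with IL4 (0.18 ± 0.07, adjusted p = 0.116) was called. Iars2 fell by 0.52 ± 0.09 (adjusted p = 0.000253) on its brighter probe, while its other probe was 0.86 higher and their mean was 0.17 higher (adjusted p = 0.0513), so the direction of Iars2 was not settled. Cars2 fell by 0.47 ± 0.11 (adjusted p = 0.002), with -0.12 on a dimmer probe, and Hars2, a neighbour of Hars on chromosome 18, by 0.31 ± 0.08 (adjusted p = 0.00321). Fars2, the mitochondrial phenylalanyl enzyme, was the member called higher, by 0.34 ± 0.09 (adjusted p = 0.00719), and with spike-in scaling it was 0.74 lower (-0.74).

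Aars2 (-0.03 ± 0.09), Sars2 (0.00 ± 0.07) and Tars2 (0.09 ± 0.08) were not called. Mars2 was not measured well enough to place. Its emodin arrays read -2.88, -0.69, -2.65 and -0.81, on either side of the IL4 arrays at -2.19, -1.98, -1.88 and -2.02, and the difference was 0.26 ± 0.46.

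**Figure D3:**
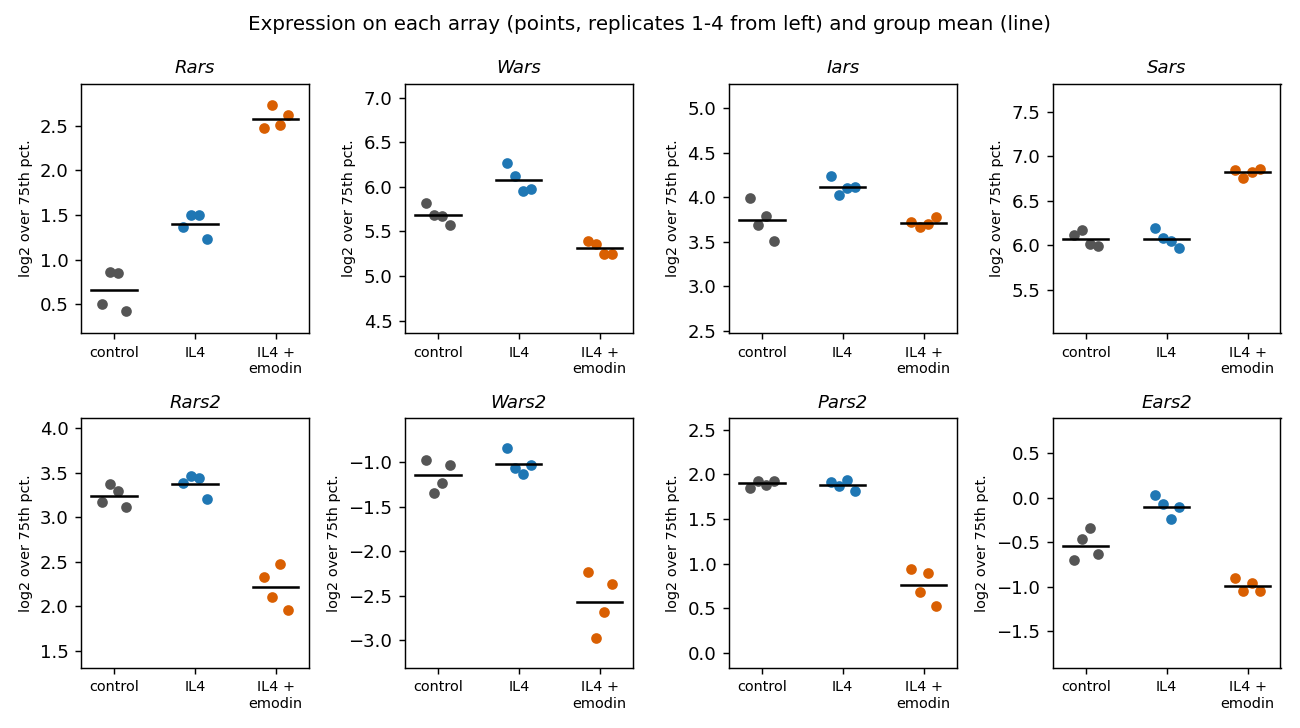
Log2 level relative to the array's 75th percentile (vertical axes, each spanning the same range of 2.8 units) on every array for 8 synthetases, with replicates 1 to 4 from left to right in each group and the group mean as a line. Emodin arrays of Rars2, Wars2, Pars2 and Ears2 lie below all other arrays, those of Rars and Sars above, and Wars and Iars are up with IL4 and back down with emodin.

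As a set, the cytosolic synthetases stayed at the background of all genes when emodin was added to IL4, and single members differed widely. Relative to the 75th percentile, 8 of 20 cytosolic members rose, 4 fell and 8 were not called, against the 39.4% and 26.5% of all genes given above. The median was 0.18 against 0.17 over all genes, with 10 members on either side, so these counts are no result about the set. Arrays of the groups did not overlap for 9 members higher and 5 lower, against 36% and 24.4% of all genes. Quantile normalization called 6 higher and 6 lower, and spike-in scaling 0 higher and 19 lower, at a median of -0.90 against -0.91 for all genes. Statements on rises below are therefore relative to the array's 75th percentile, and the spike-in value is given with each.

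Rars rose further, to 2.48, 2.73, 2.51 and 2.62, above every IL4 and control array. The step from IL4 was 1.19 ± 0.12 (adjusted p = 3.5e-06), the same with quantile normalization (1.19) and 0.11 with spike-in scaling (adjusted p = 0.436). From control it was 1.92 ± 0.12 (adjusted p = 6.86e-08), or 3.8-fold, and 0.97 with spike-in scaling (adjusted p = 9.41e-06). No other cytosolic member was called higher than control with spike-in scaling.

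Sars read 6.12, 6.17, 6.01 and 5.99 in controls, 6.19, 6.08, 6.05 and 5.97 with IL4 and 6.85, 6.75, 6.82 and 6.86 with emodin. The emodin arrays were set apart from both other groups, by 0.75 ± 0.07 (adjusted p = 3.04e-06), with 0.39 under quantile normalization and -0.33 under spike-in scaling. Kars stood at 4.41, 4.62, 4.59 and 4.4 in controls, 4.58, 4.65, 4.71 and 4.63 with IL4 and 5.16, 5.22, 5.39 and 5.33 with emodin, higher by 0.63 ± 0.08 (adjusted p = 2.63e-05; spike-in -0.45). Qars was at 5.37, 5.34, 5.29 and 5.38, then 5.39, 5.32, 5.34 and 5.35, then 5.8, 5.88, 5.88 and 5.98, a rise of 0.54 ± 0.06 with emodin (adjusted p = 1.4e-05; spike-in -0.54).

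Aars, the alanyl enzyme, gave 5.46, 5.26, 5.36 and 5.14 in controls, 5.73, 5.45, 5.54 and 5.18 with IL4 and 5.91, 5.85, 5.94 and 6.01 with emodin. The IL4 arrays were scattered into the control range and the emodin arrays were not, and the rise of 0.45 ± 0.11 (adjusted p = 0.00394) was 0.21 with quantile normalization (adjusted p = 0.138) and -0.63 with spike-in scaling. Dars was at -0.12, 0.38, 0.17 and 0.08 in controls, 0.14, 0.24, 0.16 and -0.03 with IL4 and 0.4, 0.6, 0.69 and 0.47 with emodin, a rise of 0.41 ± 0.11 (adjusted p = 0.00616; spike-in -0.67). Control and IL4 arrays of Dars were mixed, and all emodin arrays lay above them.

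Cars and Gars rose in both steps relative to the 75th percentile. Cars went from 5.5, 5.43, 5.26 and 5.42 in controls to 5.84, 5.76, 5.67 and 5.66 with IL4 and 6.12, 5.99, 6.02 and 6.18 with emodin, the second step being 0.35 ± 0.08 (adjusted p = 0.00206). With quantile normalization that step was 0.09 (adjusted p = 0.468) and with spike-in scaling -0.73. Gars, whose promoter stretch stands first above, went from 6.62, 6.36, 6.48 and 6.35 to 6.72, 6.74, 6.77 and 6.7 and then 7.18, 7.08, 7.04 and 7.01. Its step with emodin was 0.35 ± 0.08 (adjusted p = 0.0018), but -0.08 with quantile normalization (adjusted p = 0.531) and -0.73 with spike-in scaling, so its direction turned with the scaling.

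Falls in the cytosolic set held with quantile normalization. Spike-in scaling lowers every gene in this step, so it could not have turned them. Wars, raised by IL4, lay at 5.39, 5.36, 5.25 and 5.25 with emodin, below every control array on the probe chosen. The drop from IL4 was -0.77 ± 0.09 (adjusted p = 1.17e-05; quantile -1.01, spike-in -1.85), and a second Wars probe gave -0.45. Lars, the leucyl enzyme, fell by 0.55 ± 0.09 (adjusted p = 0.000207). Iars came to 3.72, 3.66, 3.7 and 3.78, inside the control range, with a fall of 0.41 ± 0.10 (adjusted p = 0.00287), and Tars fell by 0.33 ± 0.08 (adjusted p = 0.00468). Yars reached -2.31, -1.87, -2.09 and -1.87, below all IL4 arrays, without being called (-0.48 ± 0.20, adjusted p = 0.0524), though it was called lower with quantile normalization (-0.61, adjusted p = 0.0228). Of the genes with the C/EBP-ATF letters, Iars and Tars fell with emodin while Aars and Gars rose relative to the 75th percentile, with -0.63 and -0.73 under spike-in scaling.

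The rest of the cytosolic set was not called in this step relative to the 75th percentile. Vars was at 1.69, 1.41, 1.47 and 1.65 with emodin, a difference of 0.23 ± 0.10 (adjusted p = 0.0638), and was called higher with quantile normalization (0.27, adjusted p = 0.0426) and with the replicate block (adjusted p = 0.0182) and lower with spike-in scaling (-0.85). Eprs read 2.32, 1.97, 1.95 and 1.61 in controls, 2.64, 2.39, 2.39 and 2.31 with IL4 and 2.68, 3.47, 2.44 and 2.6 with emodin. Emodin replicate 2 stood well above the other emodin arrays of Eprs, and the difference from IL4 of 0.36 ± 0.21 (adjusted p = 0.146) was 0.14 without it (adjusted p = 0.443). Farsa and Farsb, the subunits of the phenylalanyl enzyme, both gave 0.05, with errors of 0.07 and 0.13. Hars gave -0.18 ± 0.10, Mars 0.13 ± 0.07 and Nars -0.15 ± 0.09, and Nars was called lower with quantile normalization (-0.23, adjusted p = 0.0228).

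The comparison of IL4 plus emodin with control shares its emodin arrays with the last comparison and its control arrays with the first, so its values stand beside those and are not further evidence. Of 20 cytosolic members 11 rose and 2 fell, and of 15 mitochondrial members 2 rose and 10 fell, against 37.3% of all genes higher, 25.6% lower and 62.9% either way. Arrays did not overlap for the same numbers of members, 11 and 2 cytosolic and 2 and 10 mitochondrial, against 32% of all genes higher and 22.3% lower. The medians were 0.36 and -0.45, against 0.15 for all genes. Quantile normalization gave 10 and 2 cytosolic and 3 and 10 mitochondrial, and spike-in scaling 1 and 14 cytosolic and 0 and 15 mitochondrial, with the median of all genes at -0.80 and 75.1% called lower.

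After Rars, the largest cytosolic rises over control were those of Eprs (0.84 ± 0.21, adjusted p = 0.00425, and 0.61 without emodin replicate 2), Kars (0.77 ± 0.08), Sars (0.75 ± 0.07), Vars (0.73 ± 0.10) and Cars (0.67 ± 0.08), whose spike-in values were -0.12, -0.18, -0.21, -0.22 and -0.28. Wars (-0.37 ± 0.09, adjusted p = 0.00295) and Lars (-0.36 ± 0.09, adjusted p = 0.0043) were lower than control. A second Wars probe differed from control by only -0.06, so the place of Wars below control rests on the probe chosen. The largest mitochondrial falls were Wars2 (-1.42 ± 0.15), Pars2 (-1.14 ± 0.09), Rars2 (-1.02 ± 0.11), Vars2 (-0.97 ± 0.18), Yars2 (-0.81 ± 0.11) and Lars2 (-0.49 ± 0.07). The ranks of Wars2 and Vars2 rest on the probe chosen, since their other probes gave 0.55 and 0.18 and the means of both probes -0.43 and -0.40. Tars2, at 0.40 ± 0.08 (adjusted p = 0.0013; spike-in -0.55), and Fars2, at 0.32 ± 0.09 (adjusted p = 0.0104; spike-in -0.63), were higher than control relative to the 75th percentile. Iars, Tars and Yars, raised by IL4, did not pass the threshold against control with emodin present, with differences of -0.03 ± 0.10, -0.01 ± 0.08 and 0.19 ± 0.20.

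Setting each cytosolic gene against its mitochondrial partner within an array takes out any scaling that multiplies the whole array. For 12 amino acids both genes were tested. The log2 ratio of cytosolic to mitochondrial signal shifted toward the cytosolic gene in 11 of 12 pairs with IL4 (median shift 0.25), in 10 of 12 with emodin added to IL4 (median 0.41) and in 11 of 12 with emodin and IL4 against control (median 0.59). These shifts carry no test, and the comparisons share arrays. No such count was made for other pairs of genes, so no background stands beside these counts. With IL4 the leucyl and threonyl pairs each shifted by only 0.01. The methionyl shift of 0.62 involves Mars2, whose SE was 0.46. The count with IL4 was 9 of 12 without replicate number 1 and also without IL4 replicate 1. With IL4 the arrays of the groups did not overlap for Rars over Rars2 (0.61) and Vars over Vars2 (0.53). Of single genes, 12.1% lay above and 12.8% below without overlap in that comparison.

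**Figure D4:**
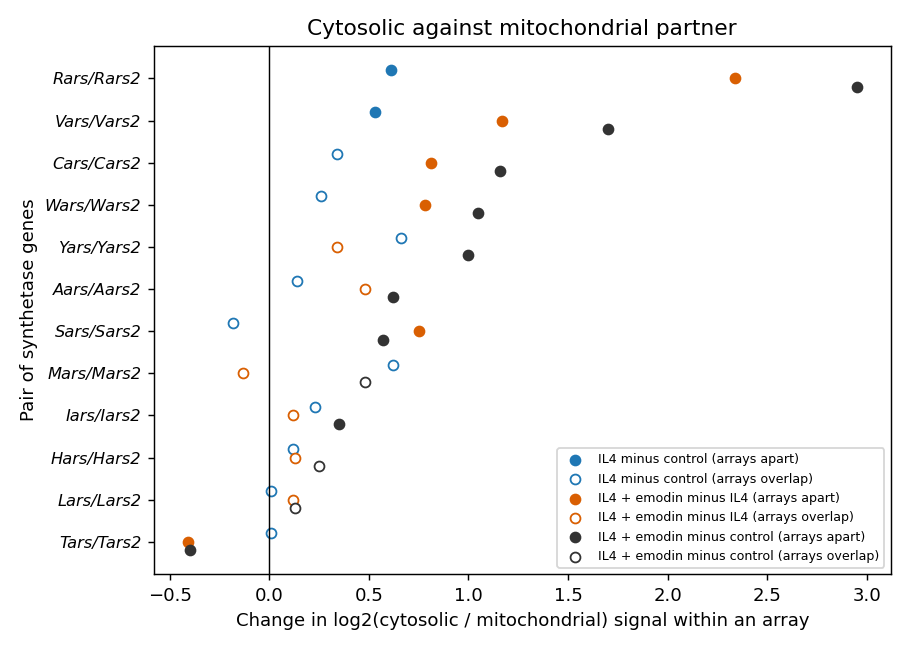
Change in log2 ratio of cytosolic to mitochondrial signal within an array (horizontal axis) for 12 pairs of genes (vertical axis) in the 3 comparisons, filled where the arrays of the groups did not overlap. Most points lie right of 0, Rars over Rars2 reaches 2.34 with emodin added to IL4 and 2.95 against control, and Tars over Tars2 lies left of 0 in both emodin comparisons.

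With emodin added to IL4, arrays did not overlap for 5 pairs that shifted toward the cytosolic gene, with Rars (2.34), Vars (1.17), Cars (0.81), Wars (0.78) and Sars (0.75), and for 1 pair that shifted the other way, Tars over Tars2 (-0.41). Of single genes, 36% lay above and 24.4% below without overlap in this step. The cytosolic median was that of all genes (0.18 against 0.17) and the mitochondrial one was -0.52. The pair counts are therefore not separate from the mitochondrial fall. The tryptophanyl pair shifted while both genes fell, Wars2 further than Wars. With the mean of all probes that passed the filter, the tryptophanyl pair was at -0.07 and the isoleucyl pair at -0.58, which left 8 of 12 pairs on the cytosolic side. Quantile normalization put 11 of 12 there, with the arginyl pair at 2.35.

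The scaffold of the multisynthetase complex, a cytosolic assembly of synthetases and 3 auxiliary proteins, was not called with IL4, where 17.5% of all genes were. With emodin added, Aimp1 rose by 0.78 ± 0.09 (adjusted p = 1.01e-05; spike-in -0.30), Aimp2 fell by 0.99 ± 0.10 (adjusted p = 5.8e-06), and Eef1e1 was not called (-0.32 ± 0.19). Of the 8 synthetases bound in the complex, 4 rose and 2 fell in that step, with a median of 0.39 (0.17 over all genes), and with spike-in scaling 0 rose and 7 fell. These shares are near those of all genes, 39.4% higher and 26.5% lower, or 3.51% and 80.4% with spike-in scaling, and are no result about the complex.

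Steps on either side of charging were read from lists chosen for function. Xpot, which exports tRNA from the nucleus, rose with IL4 (0.37 ± 0.12, adjusted p = 0.0469, and 0.0584 with quantile normalization) and fell when emodin was added (-0.88 ± 0.12, adjusted p = 3.97e-05). The 4 subunit genes of elongation factor 1, which brings charged tRNA to the cytosolic ribosome, were not called with IL4, where 17.5% of all genes were. With emodin added all 4 were higher relative to the 75th percentile, where 39.4% of all genes were. They were Eef1g (0.86 ± 0.08), Eef1a1 (0.72 ± 0.11), Eef1b2 (0.71 ± 0.10) and Eef1d (0.45 ± 0.10). Under quantile normalization Eef1a1 and Eef1d were at 0.01, and under spike-in scaling the values of all 4 were negative, from -0.22 to -0.63. Of 7 genes listed for synthetase homologues and tRNA proofreading, a list that also holds the ubiquitin ligase Lrsam1, 0 were called with IL4, where 17.5% of all genes were. With emodin Prorsd1 (0.58; quantile -0.08, spike-in -0.50) and Aarsd1 (0.46; spike-in -0.62) rose while Dtd2 (-0.84), which removes D-amino acids from tRNA, and Tarsl2 (-0.45) fell. These 2 rises and 2 falls among 7 are near or below the 39.4% and 26.5% of all genes and are no result about the list.

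On the mitochondrial side, the 3 amidotransferase genes, whose enzyme makes glutaminyl-tRNA in place of a mitochondrial glutaminyl synthetase, all fell with emodin added to IL4, by 0.62 ± 0.14 for Gatc, 0.54 ± 0.09 for Gatb and 0.29 ± 0.08 for Qrsl1. Of all genes 26.5% fell in that step. With IL4 alone, where 17.5% of all genes were called, Gatc rose by 0.44 ± 0.14 (adjusted p = 0.0437) and Qrsl1 fell by 0.28 ± 0.08 (adjusted p = 0.0388, and 0.46 with spike-in scaling). Of 10 mitochondrial translation factors 0 were called with IL4, beside the same 17.5% of all genes, and a list this small cannot be told from that share. With emodin 5 fell and 2 rose, with a median of -0.17, where 26.5% of all genes fell, 39.4% rose and 65.9% were called either way. Mtfmt, which formylates the initiator methionyl-tRNA, fell by 1.09 ± 0.11 (adjusted p = 2.87e-06). Gfm2, which acts in ribosome recycling, rose by 0.90 ± 0.07 (adjusted p = 4.97e-07; spike-in -0.18), and Tufm, the factor that delivers charged tRNA, was not called (-0.10 ± 0.08).

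Genes of the ATF4 pathway, which senses uncharged tRNA through the kinase GCN2, moved with IL4 in the same comparison as the cytosolic synthetases. Of 18 listed, 10 rose and 1 fell, with a median of 0.55, where 8.97% of all genes rose and 8.55% fell. Atf3 rose by 1.01 ± 0.07, Ddit3 by 0.98 ± 0.16, Chac1 by 0.97 ± 0.14, Trib3 by 0.90 ± 0.13 and Atf4 itself by 0.57 ± 0.09, and the gene that fell was Eif2ak4, which encodes GCN2 (-0.44 ± 0.11, adjusted p = 0.0163, and -0.32 with adjusted p = 0.297 under spike-in scaling). With emodin added, 8 rose and 4 fell relative to the 75th percentile, near the 39.4% and 26.5% of all genes, and the 6 and 6 with quantile normalization and the 1 and 16 with spike-in scaling were also near the shares of all genes given above. Ppp1r15a, which reverses eIF2α phosphorylation, rose by 1.43 ± 0.09 (spike-in 0.35) and Sesn2, a leucine sensor, by 1.02 ± 0.15 (spike-in -0.06), while Eif2ak2, an interferon-induced eIF2α kinase, fell by 2.33 ± 0.07 and Atf5 by 1.01 ± 0.10. Atf4 was not called (0.11 ± 0.09), and with quantile normalization its difference was -0.58 (adjusted p = 1.14e-05).

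Genes that supply amino acids were read beside them. Of 12 amino acid synthesis genes tested, 7 rose and 0 fell with IL4, where 8.97% of all genes rose, among them Phgdh (0.99 ± 0.12), the entry to serine synthesis, and Gpt2 (0.82 ± 0.16), an alanine transaminase. With emodin added, 7 fell and 2 rose, where 26.5% of all genes fell and 39.4% rose, and Gpt2 fell by 1.88 ± 0.16, Aldh18a1, which starts proline synthesis, by 1.66 ± 0.12 and Phgdh by 0.99 ± 0.12. Of 11 amino acid transporters tested, 7 rose and 0 fell with IL4, led by the cationic amino acid carrier Slc7a2 (4.96 ± 0.24), and Slc7a5, the large neutral amino acid carrier, rose by 1.15 ± 0.14. With emodin added, 8 transporters fell and 2 rose, beside the same shares of all genes, and Slc7a11, the cystine carrier, fell by 2.14 ± 0.19, Slc7a2 by 1.62 ± 0.24 and Slc7a5 by 1.32 ± 0.14. The transporter that rose most was Slc7a3 (1.41 ± 0.19; spike-in 0.33, adjusted p = 0.16).

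No synthetase was called for a response that differed between the sexes. An interaction of sex with each comparison in limma, with 2 arrays per sex and group, called 0 of 35 members in any of the 3 comparisons, and 0 members had an unadjusted p below 0.05. Across all genes 0 were called, with 272, 507 and 434 of 20860 at an unadjusted p below 0.05, and 0 were called after quantile normalization.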

How the data were processed

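RNA of 12 samples was read on 1-colour Agilent mouse arrays. The deposited scanner files hold the processed intensity of each spot, background-corrected by the scanner software (Feature Extraction 10.7.3.1, per the file headers, which name the build mm9). The authors' value table, with scale and centring not stated, was matched to the scanner values as log2 intensity, quantile normalized and centred on each probe's median (correlation 1 on every array, array medians -0.01 to 0.01). It served as an alternative.

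Control spots and spots with an outlier flag were dropped, spots of a probe averaged, and log2 intensity was set against the array's 75th percentile. Of 55681 probes, 27705 were kept, those well above background throughout the 4 arrays of any group, and the probe with the highest mean stood for its gene. Transcript accessions without version were matched to RefSeq (GRCm38.p6), which named 27509 probes and left 28172 unnamed. Levels of different probes were not compared. limma 3.58.1 in R 4.3.3 fitted 3 group means over 12 arrays with empirical Bayes and Benjamini-Hochberg adjustment, and a call is an adjusted p below 0.05. The script was tested on simulated data. The number of arrays limits the precision.

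Members and lists were chosen with earlier results of these data known. Every array's value is given for the 6 called members that changed most with IL4, for the 6 largest called rises and falls in each emodin comparison, and for Wars, Gars, Kars and Eprs. Partner lists show up to 4 called genes per comparison by size. Outside this rule, Mars2, Atf4, Eif2ak4 and Tufm were picked after their values were seen. Replicate numbers 1 to 4 recur in the groups, and are also slide columns and sexes. Same-numbered IL4 and control arrays deviated together (r = 0.52, 0.31, 0.33 and 0.44), so the block was fitted there as an alternative. Further alternatives were other scalings, background corrections, filters and probe rules, a sex term, fewer groups and left-out arrays.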

Additional observations from a re-analysis of the deposited data

Results flagged for a closer look

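Of 105 groups of 4 arrays (35 tested members in 3 groups), 2 held an array that stood far from the other 3 by Dixon's test, and chance gives about 1 in 20. The emodin array of replicate 4 had a Hars level of 2.02, where the other emodin arrays lay between 1.67 and 1.71. Without it, Hars was called lower with emodin added to IL4 (limma, adjusted p = 0.0283). The control array of replicate 4 had a Lars level of 4.05, where the other control arrays lay between 4.3 and 4.34.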

How the results depend on the processing

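Counts of called members kept within 1.5 times under quantile normalization, normexp, the authors' table, the filters, the trend prior, the sex term and fits of only the groups compared. With spike-in scaling, emodin against IL4 gave 0 cytosolic members higher and 19 lower and 0 mitochondrial higher, and emodin plus IL4 against control gave 1, 14 and 0. With the mean of all probes of a gene, 1 cytosolic member was lower than control with emodin. Without a replicate, the cytosolic rises with IL4 numbered 2 to 10 and the mitochondrial rises 0 to 2. For emodin against IL4, cytosolic rises numbered 8 to 9, falls 4 to 5, mitochondrial rises 1 and falls 10, and against control 11, 2, 2 to 3 and 10. The cause was not tested.

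With the replicate block, cytosolic rises with IL4 numbered 10. In the emodin comparisons arrays numbered 2 shared little (r = 0.09 against IL4 and 0.06 against control). Numbers 1, 3 and 4 gave r from 0.31 to 0.44 against IL4 and 0.34 to 0.51 against control. There the block gave 9 cytosolic rises against IL4 (Vars, adjusted p = 0.0182, limma) and 3 mitochondrial rises against control (Sars2, adjusted p = 0.0469).

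Signs turned mainly with spike-in scaling. With IL4 these were Dars 0.13, Farsb 0.06, Sars 0.13, Cars2 0.11, Fars2 0.11, Hars2 0.11, Pars2 0.11 and Vars2 0.09. With emodin against IL4 they were Aars -0.63, Cars -0.73, Dars -0.67, Eprs -0.72, Farsa -1.03, Farsb -1.03, Gars -0.73, Kars -0.45, Mars -0.95, Qars -0.54, Sars -0.33, Vars -0.85, Fars2 -0.74, Mars2 -0.82 and Tars2 -0.99. Against control they were Aars -0.33, Cars -0.28, Dars -0.54, Eprs -0.12, Farsa -0.83, Gars -0.33, Kars -0.18, Mars -0.63, Nars -0.78, Qars -0.41, Sars -0.21, Vars -0.22, Yars -0.76, Aars2 -0.95, Fars2 -0.63, Sars2 -0.78 and Tars2 -0.55. The authors' table and quantile normalization gave Sars 0.01 and Yars2 -0.02 with IL4, and Farsb -0.01, Sars2 0.02 and Gars -0.09 and -0.08 with emodin against IL4. Normexp gave Dars 0.11, Qars -0.02, Sars 0.02 and Yars2 -0.02 with IL4, Farsa -0.04, Farsb -0.02 and Tars2 -0.06 with emodin against IL4 and Mars2 0.06 against control. The mean of all probes gave Cars2 0.07 and Vars2 0.08 with IL4 and Iars2 0.17 and 0.26 in the emodin comparisons.

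Without a replicate, signs turned only for members not called in that comparison. With IL4 the ranges were -0.09 to 0.08 for Dars, -0.14 to 0 for Farsb, -0.02 to 0.01 for Qars, -0.04 to 0.03 for Sars, -0.03 to 0.08 for Aars2, -0.06 to 0.07 for Cars2, -0.07 to 0.02 for Fars2, -0.05 to 0.02 for Hars2, -0.04 to 0.02 for Pars2, -0.14 to 0.04 for Vars2 and -0.07 to 0.08 for Yars2. With emodin against IL4 they were -0.01 to 0.16 for Farsb, -0.1 to 0.04 for Aars2, -0.1 to 0.63 for Mars2 and -0.04 to 0.06 for Sars2. Against control they were -0.11 to 0.09 for Farsb, -0.17 to 0 for Hars, -0.13 to 0.05 for Iars, -0.08 to 0.04 for Tars, -0.08 to 0.46 for Yars, -0.06 to 0.07 for Aars2 and -0.54 to 0.21 for Mars2. The shifts of pairs under other settings were computed after seeing the data. Signal over background limits Nars2, which was untested. Mars2 was well above background on all 4 arrays of each group, and its SE of 0.46 goes with emodin arrays spread from -2.88 to -0.69.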
